A study of Arabidopsis thaliana with 12 samples.

Results

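AT1G12030 is a nuclear gene on chromosome 1 of Arabidopsis thaliana, read by 1 probe set (257421_at) of a single-colour Affymetrix array. It was chosen, out of 13356 genes measured, because the smaller of its differences between slim1-1 and wild type under arsenite and under cadmium was the largest of any gene. Its genotype differences are therefore a description and carry no test, and the tests below are on other genes. A gene is called measured here if the probe table used lists a probe set with that gene alone. A further 8730 probe sets are listed with no gene, so a gene not measured may still be on the array. The arrays measured RNA of whole seedlings aged 14 days in 4 groups of 3 biological replicates. These were slim1-1 under 20 µM As(III), Col-0 wild type under 20 µM As(III), slim1-1 under 100 µM Cd and Col-0 wild type under 100 µM Cd, all on minimal media. The treatment text of all 12 samples, those on cadmium included, describes a move to arsenite for 48 h after 12 untreated days, so the time on cadmium is not known. Seedlings without metal are not analysed here, and slim1-1 is a single mutant allele of SLIM1.

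SLIM1, also named EIL3, belongs to the EIN3-like transcription factors and controls much of the transcription that follows sulfur shortage. It raises genes of sulfate uptake and of glucosinolate breakdown and restrains others when sulfur is short. Arsenite and cadmium bind thiols, and cells detoxify them with glutathione and phytochelatins, so both metals raise the need for assimilated sulfur. AT1G12030 encodes a protein with the plant domain of unknown function DUF506. RXR1, a gene of that family in Arabidopsis, encodes a protein that limits root hair growth, and what AT1G12030 does is not established. No protein or promoter sequence of these genes was used here, and membership of the DUF506 family rests on general annotation of the species.

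The deposited values are log2 RMA values, and the arrays fall into 2 sets by metal. The array median was 5.58 to 5.64 in the cadmium set and 6.85 to 6.94 in the arsenite set, so levels under the 2 metals are not on 1 scale. Genotype differences within a metal are free of that step. The 25S rRNA control probe set averaged 9.75 ± 0.34 in slim1-1 and 10.43 ± 0.20 in wild type under cadmium (SD, n = 3 arrays each), with no overlap. The ubiquitin 3' minus 5' signal, a sign of RNA integrity, was 0.92 ± 0.04 in slim1-1 and 0.80 ± 0.02 in wild type under arsenite (SD, n = 3 each), with no overlap, and the GAPDH one was 0.82 ± 0.08 and 0.96 ± 0.03, also with no overlap. The actin one was 3.84 ± 0.13 in slim1-1 and 3.58 ± 0.04 in wild type under cadmium (SD, n = 3 each), again with no overlap. The part of these in the results was not tested. The 2 shoot markers measured of 15 listed, the photosystem antenna gene LHCB4.1 and the Rubisco activase gene RCA, were at 12.45 to 13.76 on every array. RCA was lower on every slim1-1 array than on any wild-type array in each metal, with differences of -0.11 ± 0.06 (SE) under arsenite and -0.04 ± 0.06 under cadmium (limma adjusted p = 0.457 and 0.7), and -0.02 under cadmium without slim1-1 cadmium replicate 1. LHCB4.1 went the other way under cadmium, with every slim1-1 array above every wild-type array and a difference of 0.07 ± 0.06, or 0.04 without slim1-1 replicate 2 or wild-type replicate 3 (limma adjusted p = 0.509). Under arsenite its groups overlapped. The 2 root markers measured of 11, the root hair expansin genes EXPA7 and EXPA18, lay between 3.36 and 6.80. SLIM1 itself was not analysed here, so the genotype labels were not checked against the mutated gene.

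Under arsenite, the AT1G12030 signal on the log2 scale was 9.21, 7.75 and 7.62 on the slim1-1 arrays, against 4.34, 4.38 and 4.29 on the wild-type arrays. Every mutant array was far above every wild-type array, and mutant replicate 1 was well above the other mutant arrays. The means were 8.19 ± 0.88 in slim1-1 and 4.34 ± 0.05 in wild type (SD, n = 3 each), a difference of 3.86 ± 0.34 (SE) or 14.5-fold. The lowest mutant value exceeded the highest wild-type value by 3.24, which is 9.44-fold. The wild-type values lay under the first quartile of their own arrays (4.57 to 4.62), where signal and background cannot be separated without detection calls, so the fold is uncertain. In whole seedlings, fewer cells that express a gene and less of its RNA per cell cannot be told apart.

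Under cadmium the signal was 10.41, 10.03 and 9.41 on the slim1-1 arrays, against 6.81, 7.10 and 7.0 on the wild-type arrays. The groups again did not overlap, and here the wild-type arrays were above the middle of their own distribution. The means were 9.95 ± 0.51 in slim1-1 and 6.97 ± 0.15 in wild type (SD, n = 3 each), a difference of 2.98 ± 0.34 (SE) or 7.91-fold. The lowest mutant value exceeded the highest wild-type value by 2.31, which is 4.97-fold. The genotype difference under cadmium minus that under arsenite was -0.87 ± 0.48 (SE, n = 3 arrays in each of 4 groups), and -0.36 when slim1-1 arsenite replicate 1 was left out. This value is made of the contrasts that chose the gene and was not tested.

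**Figure D1:**
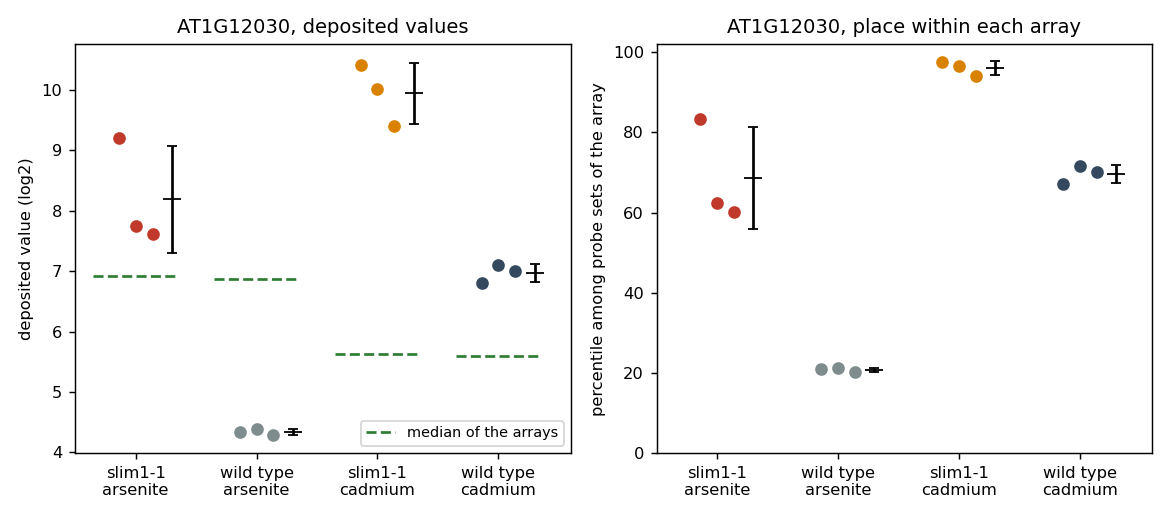
AT1G12030 on each of the 12 arrays, as the deposited log2 value (left) and as the percentile of that value among the 22746 probe sets of the same array other than controls (right). Points are arrays, horizontal ticks with bars are group means ± SD (n = 3), and dashed green lines are the mean of the array medians. The slim1-1 arrays lie above the wild-type arrays under both metals, and wild type under cadmium (67.1 to 71.7) lies within the range of slim1-1 under arsenite (60.3 to 83.2) on the percentile scale.

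Because the sets are not on 1 scale, the 4 groups were ordered by the place of AT1G12030 within each array. It stood at the percentile 96.0 ± 1.8 in slim1-1 under cadmium, 69.6 ± 2.3 in wild type under cadmium, 68.6 ± 12.7 in slim1-1 under arsenite and 20.8 ± 0.5 in wild type under arsenite (SD, n = 3 each). Wild type under cadmium and slim1-1 under arsenite, the neighbours in the middle of that order, did not differ beyond their spread. Neither overlapped the group above or the group below. With quantile normalization over the 12 arrays the log2 means were 10.53 ± 0.50, 7.58 ± 0.14, 7.57 ± 0.89 and 3.71 ± 0.03 in the same order of groups (SD, n = 3 each). On this scale too, wild-type seedlings on cadmium and mutant seedlings on arsenite had the same mean level within their spread.

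The level of AT1G12030 thus also differed between the sets of arrays within each genotype. In slim1-1 it averaged 9.95 ± 0.51 under cadmium and 8.19 ± 0.88 under arsenite, a difference of 1.76, whereas the median gene differed by -1.16. In wild type it averaged 6.97 ± 0.15 under cadmium and 4.34 ± 0.05 under arsenite, a difference of 2.63, whereas the median gene differed by -1.14. Relative to the median gene the cadmium level was higher by 2.92 ± 0.59 (SE) in slim1-1 and by 3.77 ± 0.09 in wild type. These differences exceeded those of 99.84% and 99.91% of genes. They were not tested, since metal, dose and set of arrays cannot be told apart. The ubiquitin 3' minus 5' signal also differed between the sets, at 0.78 to 0.95 under arsenite and 1.37 to 1.43 under cadmium. Its part was not tested. The wild-type difference also starts from arsenite values under the first quartile of their arrays, so its size is uncertain.

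The replicates of the mutant differed from each other far more in AT1G12030 than in most genes. Its SD between replicates was 0.88 in slim1-1 and 0.05 in wild type under arsenite, against medians over all genes of 0.10 and 0.08. It was 0.51 in slim1-1 and 0.15 in wild type under cadmium, against medians of 0.10 and 0.09. Its spread was thus above that of 99.83% of genes in slim1-1 and 20.8% in wild type under arsenite, and above that of 99.65% and 77.8% under cadmium. The wild-type arsenite values lay under the first quartile of their arrays, so background may limit their spread. In slim1-1 arsenite replicate 1 AT1G12030 exceeded the mean of the other mutant replicates by 1.52, and 91 of 13356 genes deviated there by at least 1 in either direction. That count was 17 and 54 for replicates 2 and 3 of the same group, and 1 to 35 on the arrays of the other groups. On slim1-1 arsenite replicate 1 the 25S rRNA signal was 10.71, against 11.30 and 11.10 on the other arrays of its group. On wild-type arsenite replicate 3 it was 10.72, against 11.62 and 11.87 in its group. There AT1G12030 deviated from the mean of the other replicates by -0.07. The part of the 25S rRNA signal was not tested.

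Among the 13356 genes, AT1G12030 had rank 1 by the genotype difference under arsenite and rank 3 by that under cadmium. Over all 22746 probe sets other than controls, listed with a gene or not, it had rank 2 and rank 7. Genes just below it, ranked by the smaller of their differences under the 2 metals, were AT4G20820, SDI2 and AT4G12500, with smaller differences of 1.91, 1.63 and 1.61. AT4G20820 encodes a berberine bridge enzyme-like oxidase, SDI2 a sulfur starvation-induced protein that represses glucosinolate synthesis, and AT4G12500 a lipid transfer protein-like protein. The values of AT4G12500 rested on a wide spread, with 9.31 ± 1.46 in slim1-1 and 7.70 ± 1.12 in wild type under arsenite (SD, n = 3 each). Its groups overlapped, and without slim1-1 arsenite replicate 3 its difference under arsenite was 0.77. Over the same probe sets 257421_at had the highest smaller difference. Of the 5 probe sets next in line, 4 are not listed with 1 gene in the probe table used here and had smaller differences of up to 2.17. Which genes these 4 read was not determined, so members of the lists below may be among them.

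**Figure D2:**
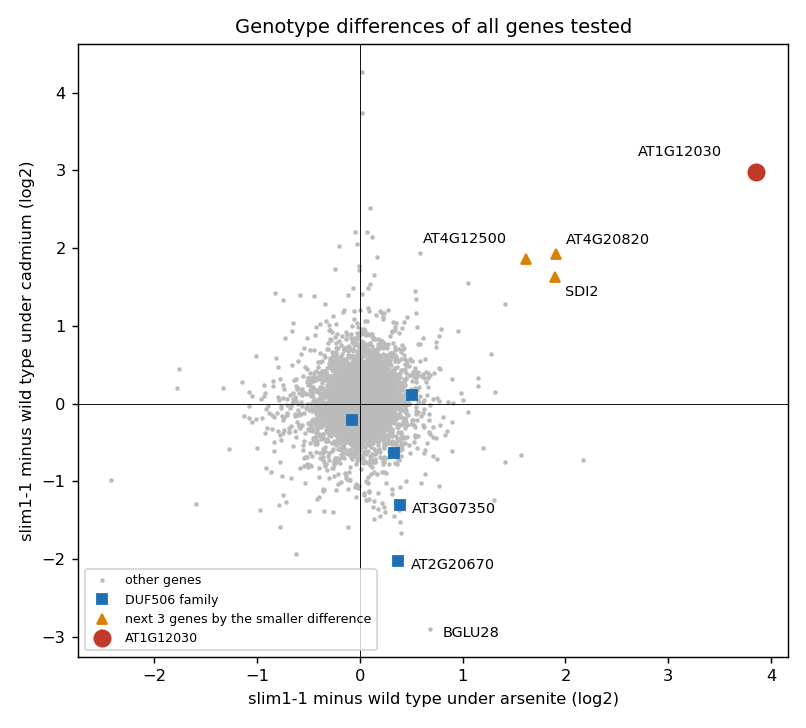
Difference between slim1-1 and wild type on the log2 scale under arsenite (horizontal axis) and under cadmium (vertical axis) for the 13356 genes tested, each point a gene. AT1G12030 (red circle, 3.86 and 2.98) is far from the cloud of all genes. Orange triangles mark the next 3 genes by the smaller difference, and blue squares mark the other measured members of the DUF506 family, which lie below zero or near it on the cadmium axis.

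Genes with a profile like that of AT1G12030 were sought over the 12 arrays after the mean of each gene within each metal was subtracted, among 1174 other genes with an SD of at least 0.25. The 5 highest Pearson correlations were 0.981 for AT4G20820, 0.981 for SDI2, 0.954 for the sugar transporter-like gene SFP1 (AT5G27350), 0.948 for the amino acid transporter-like gene AT3G56200 and 0.941 for AT3G45210. The points share arrays and genotypes, and a gene with a clear genotype difference in both metals scores high by construction. Without slim1-1 arsenite replicate 1 the 5 values lay between 0.937 and 0.987.

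The similar genes had smaller genotype differences than AT1G12030, which was chosen as the gene with the largest smaller difference. AT4G20820 had 7.25, 6.94 and 6.68 in slim1-1, against 4.90, 5.03 and 5.22 in wild type, under arsenite. Under cadmium AT4G20820 had 6.17, 5.76 and 5.40 in slim1-1, against 3.69, 3.86 and 3.99 in wild type. The mutant arrays kept the order of AT1G12030 in both metals, replicate 1 highest and replicate 3 lowest. SDI2 had 10.17, 9.90 and 9.74 in slim1-1, against 7.77, 8.23 and 8.12 in wild type, under arsenite. Under cadmium SDI2 had 9.12, 9.26 and 8.78 in slim1-1, against 7.38, 7.64 and 7.26 in wild type. Its mutant arrays followed the same order under arsenite but not under cadmium. SFP1 averaged 11.05 ± 0.02 in slim1-1 and 10.41 ± 0.12 in wild type under arsenite, and 10.22 ± 0.17 and 9.64 ± 0.10 under cadmium (SD, n = 3 each). AT3G56200 averaged 9.28 ± 0.10 in slim1-1 and 8.32 ± 0.20 in wild type under arsenite, and 9.21 ± 0.35 and 8.28 ± 0.16 under cadmium. AT3G45210 averaged 5.85 ± 0.14 in slim1-1 and 5.29 ± 0.09 in wild type under arsenite, and 7.13 ± 0.09 and 6.36 ± 0.09 under cadmium.

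**Figure D3:**
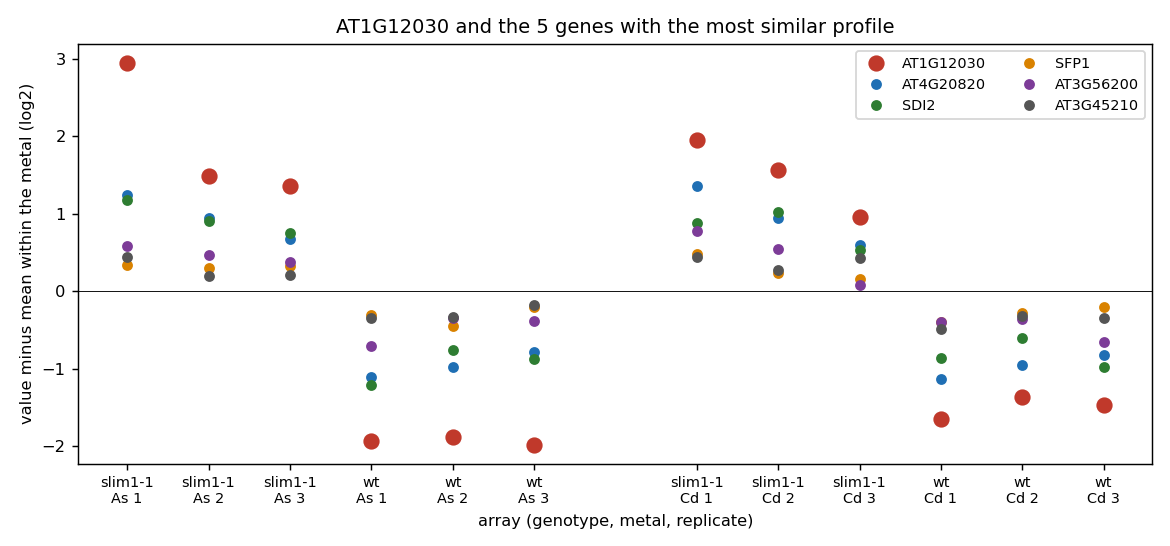
Log2 values minus the mean of the gene over the 6 arrays of a metal, for AT1G12030 (large red points) and the 5 genes with the most similar profile, on each of the 12 arrays. All 6 genes are above zero on every slim1-1 array and below zero on every wild-type array, and AT1G12030 has the widest range, up to 2.94 on slim1-1 arsenite replicate 1.

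The 6 genes spanned a wide range of differences between the metals. In wild type, cadmium minus arsenite relative to the median gene was 3.77 for AT1G12030, 2.22 for AT3G45210, 1.09 for AT3G56200, 0.52 for SDI2, 0.37 for SFP1 and -0.07 for AT4G20820. BGLU28, a beta-glucosidase gene used as a sulfur starvation marker, had 5.83 in wild type, and its genotype difference under cadmium ran the opposite way to that of AT1G12030. The wild-type arsenite values of BGLU28 (4.48 to 4.56) lay under the first quartile of their arrays (4.57 to 4.62), so its 5.83 is uncertain.

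After the mean of each group was subtracted, which removes genotype and metal, 6255 other genes with an SD of at least 0.1 were compared with AT1G12030. The highest correlations were 0.973 for the TIR-NBS-LRR resistance-type gene AT5G41550, 0.935 for the thaumatin-like gene AT5G40020, 0.934 for the cupredoxin gene AT3G27200, 0.932 for AT5G12900 and 0.928 for the receptor-like kinase gene AT3G24240. These 12 values have 8 degrees of freedom, share their arrays and were picked from many genes. They describe which genes followed the same arrays. AT5G41550 lay at 2.70 to 3.12 on the cadmium arrays, under their first quartiles (3.25 to 3.32). On the arsenite arrays it lay at 4.37 to 4.81, near their first quartiles (4.55 to 4.62). Background limits its values there. Without slim1-1 arsenite replicate 1 the 5 correlations lay between 0.861 and 0.963. In the same values the correlation was 0.799 for AT4G20820 and 0.646 for SDI2.

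The other genes of the DUF506 family were measured for 5 of 12 members, and under cadmium most of these were lower in slim1-1, where AT1G12030 was higher. Under cadmium 3 of the 5 fell in slim1-1 and 0 rose (limma, Benjamini-Hochberg adjusted p under 0.05 over 13356 genes), where 5.71% of all genes fell. At an unadjusted p under 0.05 there were 4 of 5, where 26.1% of all genes passed that threshold in either direction. Their median difference under cadmium was -0.64, against -0.01 over all genes. Under arsenite 1 of the 5 rose and 0 fell by the same test, where 1.05% of all genes passed in either direction. There 4 of 5 had an unadjusted p under 0.05, against 12.8% of all genes, and the median difference was 0.37, against 0.01 over all genes.

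AT2G20670 had the largest change of the 5. Under cadmium it had 8.45, 8.48 and 8.79 in slim1-1, against 10.64, 10.32 and 10.86 in wild type. The mutant arrays were all lower. AT2G20670 fell by 2.03 ± 0.15 there (SE, limma adjusted p = 1.34e-05), so that the wild-type level was 4.08-fold that of slim1-1. Under arsenite it had 11.59, 11.52 and 11.78 in slim1-1, against 11.21, 11.05 and 11.49 in wild type, a difference of 0.37 ± 0.15 (limma adjusted p = 0.294). All mutant arrays were above all wild-type arrays, but the difference did not pass. The genotype difference under cadmium minus that under arsenite was -2.40 ± 0.21 (limma adjusted p = 0.000197).

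AT3G07350 had the same shape. It had 7.77, 7.94 and 8.21 in slim1-1, against 9.26, 9.14 and 9.42 in wild type, under cadmium. It fell by 1.3 ± 0.13 (limma adjusted p = 5.37e-05). Under arsenite it had 9.76, 9.80 and 10.05 in slim1-1, against 9.32, 9.45 and 9.66 in wild type, a difference of 0.39 ± 0.13 that did not pass (limma adjusted p = 0.191). Here too all mutant arrays were above all wild-type arrays under arsenite and below them under cadmium.

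AT2G38820 changed less. Under cadmium it had 6.72, 6.74 and 6.78 in slim1-1, against 7.42, 7.20 and 7.55 in wild type, and fell by 0.64 ± 0.10 (limma adjusted p = 0.00187). Under arsenite it had 8.50, 8.66 and 8.75 in slim1-1, against 8.16, 8.30 and 8.46 in wild type, a difference of 0.33 ± 0.10 (limma adjusted p = 0.167). The arsenite difference passed with array weights (adjusted p = 0.0327). Of the 5 family members, 3 had a lower genotype difference under cadmium than under arsenite by the test of the interaction, against 2.1% of all genes (4.3% in either direction). The median interaction of the 5 was -0.97, against -0.02 over all genes.

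AT3G22970 was the member that rose under arsenite. It had 9.32, 9.43 and 9.45 in slim1-1, against 8.85, 8.80 and 9.03 in wild type, with no overlap. The rise was 0.50 ± 0.08 (SE, limma adjusted p = 0.0118), which is smaller than that of AT1G12030 by more than 3 log2 units. The call was lost without slim1-1 arsenite replicate 2 (adjusted p = 0.0542) or wild-type arsenite replicate 2 (0.0638), and with the arsenite arrays fitted alone (0.0878). Under cadmium AT3G22970 averaged 7.65 ± 0.12 in slim1-1 and 7.55 ± 0.04 in wild type (SD, n = 3 each; limma adjusted p = 0.448), with overlapping groups. AT2G39650 had overlapping groups under both metals, with 9.69 ± 0.07 in slim1-1 and 9.76 ± 0.07 in wild type under arsenite and 5.89 ± 0.06 and 6.10 ± 0.18 under cadmium (limma adjusted p = 0.816 and 0.151). Its level was lower under cadmium than under arsenite in both genotypes, with -2.64 in slim1-1 and -2.53 in wild type relative to the median gene, the opposite of AT1G12030.

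**Figure D4:**
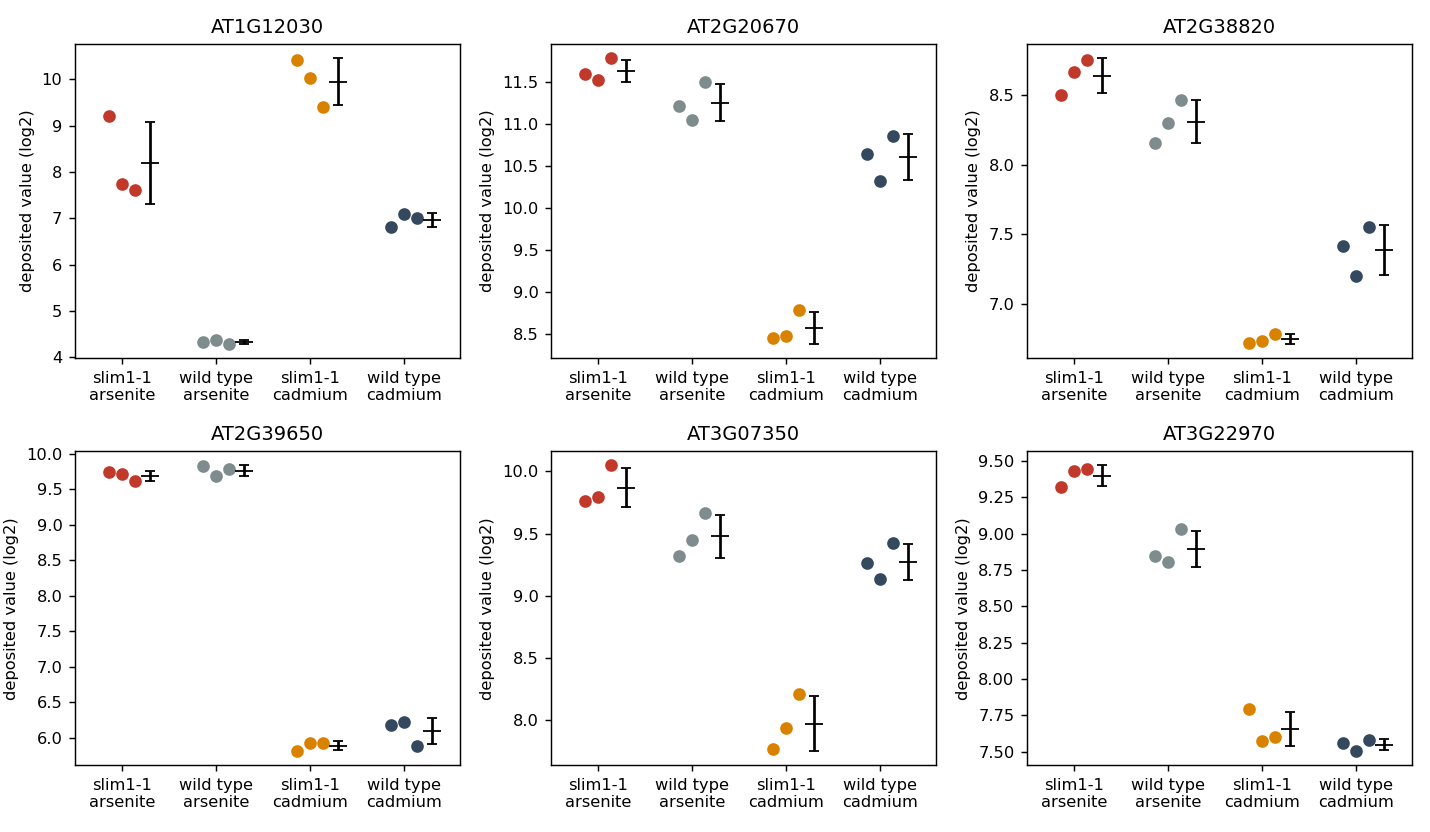
Deposited log2 values of the 6 measured DUF506 genes on each array, with group means ± SD (n = 3). Vertical axes differ between panels and do not start at zero. AT1G12030 is higher in slim1-1 under both metals, whereas AT2G20670, AT2G38820 and AT3G07350 are lower in slim1-1 under cadmium.

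The genes of sulfur nutrition and of the EIN3-like family were taken from 5 lists with 54 members, of which 10 were measured. Under arsenite 1 of the 10 rose and 1 fell, against 0.457% of all genes that rose and 0.591% that fell. Under cadmium 1 rose and 3 fell, against 6.62% and 5.71% of all genes. The one that rose under both metals was SDI2 (1.89 ± 0.16 under arsenite, limma adjusted p = 0.000352, and 1.63 ± 0.16 under cadmium, limma adjusted p = 5.29e-05), and it is among the genes that were chosen above for their profile. Sulfate transporters were listed with 10 members, of which 0 had a probe set listed with 1 gene, and the same held for the 17 phosphate starvation markers. Their levels are therefore not known here, and they may still be on the array.

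Only 2 of the 12 listed sulfur starvation markers were measured, so the direction of most of that list is not known here. Of these 2, BGLU28 thus differed from SDI2 in direction under cadmium. It had 6.23, 5.83 and 6.88 in slim1-1, against 8.86, 9.39 and 9.39 in wild type, and fell by 2.90 ± 0.25 (limma adjusted p = 2.88e-05). Under arsenite its difference was 0.68 ± 0.25 and did not pass (limma adjusted p = 0.268), though no mutant array overlapped the wild-type arrays. With array weights the arsenite difference passed (0.95, limma adjusted p = 0.0265). The wild-type values there lay under the first quartile of their arrays, so the size of that difference is uncertain.

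Of the 20 sulfate assimilation genes 3 were measured. The ATP sulfurylase gene APS4 fell under arsenite by 0.62 ± 0.11 (limma adjusted p = 0.0181), with 9.88, 10.14 and 10.30 in slim1-1, against 10.70, 10.68 and 10.80 in wild type. That call was lost without slim1-1 arsenite replicate 2 or wild-type arsenite replicate 2 or 3 (adjusted p 0.0582 to 0.0638), and with the arsenite arrays fitted alone (0.109). Under cadmium the ATP sulfurylase gene APS3 fell by 0.73 ± 0.15 (limma adjusted p = 0.00771). SIR, which encodes sulfite reductase, fell by 0.39 ± 0.09 (limma adjusted p = 0.0144).

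The remaining listed genes did not pass in either metal with all arrays. The glutathione reductase genes GR1 and GR2, 2 of 6 listed genes of glutathione and phytochelatin synthesis and recycling, differed by 0.29 ± 0.12 and -0.24 ± 0.11 under cadmium (limma adjusted p = 0.161 and 0.196). GR1 had no overlap between the genotypes there and was called with the cadmium arrays fitted alone (limma adjusted p = 0.0359). GR2 differed by -0.14 without slim1-1 cadmium replicate 3. Among EIN3-like factors EIN3, the main transcription factor of ethylene signalling, averaged 10.45 ± 0.07 in slim1-1 and 10.39 ± 0.04 in wild type under arsenite and 9.04 ± 0.10 and 9.16 ± 0.03 under cadmium (SD, n = 3 each; limma adjusted p = 0.822 and 0.336). EIL4 and EIL5 lay between 2.51 and 4.01 on all arrays, in the lowest part of the scale. For this list 0 of 3 passed in limma, with 0 under arsenite and 1 under cadmium (EIL4) at an unadjusted p under 0.05. Of 10 root hair genes listed, EXPA7 and EXPA18 were measured and differed by 0.41 ± 0.17 and 0.50 ± 0.20 under cadmium (limma adjusted p = 0.139 and 0.138). EXPA7 differed by 0.27 without wild-type cadmium replicate 1 and was called without wild-type cadmium replicate 2 (0.59, limma adjusted p = 0.0405). EXPA18 differed by 0.31 without slim1-1 cadmium replicate 3.

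**Figure D5:**
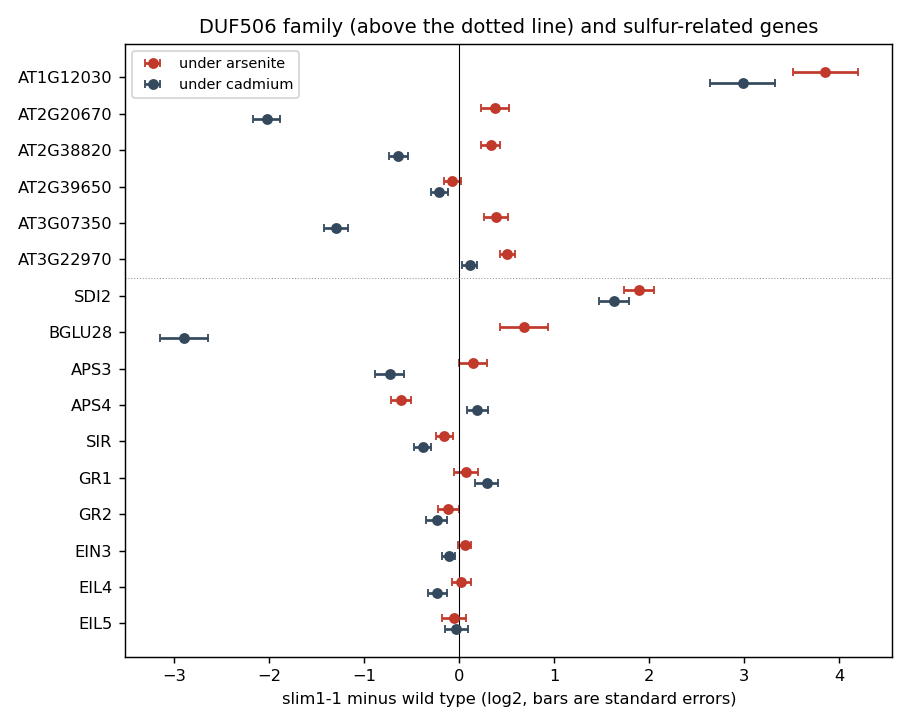
Difference between slim1-1 and wild type on the log2 scale with its standard error under arsenite (red) and cadmium (dark), for the measured DUF506 genes above the dotted line and the measured sulfur-related and EIN3-like genes below it. AT1G12030 and SDI2 are the genes shown that are clearly above zero under both metals, and AT2G20670 (-2.03) and BGLU28 (-2.90) have the lowest values under cadmium.

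The gene next to AT1G12030 on the chromosome, AT1G12020, had a weak difference of the same sign. It had 6.54, 6.24 and 6.14 in slim1-1, against 5.99, 6.10 and 6.07 in wild type, under arsenite. Under cadmium it had 6.03, 5.94 and 5.80 in slim1-1, against 5.51, 5.75 and 5.72 in wild type. No mutant array overlapped the wild-type arrays in either metal, and the mutant arrays stood in the same order as for AT1G12030. The differences were 0.25 ± 0.10 and 0.26 ± 0.10 and did not pass (unadjusted p = 0.032 and 0.026, limma adjusted p = 0.323 and 0.13). Without slim1-1 arsenite replicate 1, the array on which AT1G12030 was highest in its group, the arsenite difference was 0.14. After group means were subtracted, the correlation with AT1G12030 over the 12 arrays was computed for every measured neighbour. AT1G12020 had the highest, 0.901, and the others lay between -0.267 and 0.573. The other measured neighbours were AT1G12000, the beta subunit of a pyrophosphate-dependent phosphofructokinase, and AT1G12010, an ACC oxidase-like gene, before it, and AT1G12070, AT1G12080 and AT1G12100 after it. In the limma fit 0 of these 5 passed, though AT1G12080 did under arsenite without slim1-1 replicate 1 (-0.50, limma adjusted p = 0.0457). Of the 5 on all arrays, AT1G12010 had an unadjusted p under 0.05, under cadmium (-0.37 ± 0.15, limma adjusted p = 0.138).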

How the data were processed

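The 12 arrays were grouped by the labels' genotype and metal, and the series design text states 3 biological replicates. The log2 values were made and deposited by the authors with RMA, per the submitters' processing notes, which as used here give no version or options. From the 22746 probe sets other than controls (64), the 13513 that the probe table lists with 1 gene were kept, and for 146 genes with several the brightest, which left 13356 genes (13286 matched to RefSeq TAIR10.1). The genome build of the probe design is not given in the sources used here, so positions are left out. A linear model with 4 group means was fitted with limma 3.58.1 in R 4.3.3, two-sided p-values were adjusted over all genes by Benjamini-Hochberg, and no filter on low values was used. With 3 arrays a group, their number limits the precision. The fit was tested on simulated data.

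The gene, the gene lists, the naming rule and the tests were chosen with earlier results of these data known. Named were AT1G12030, all measured DUF506 genes, up to 4 members of each list with a call, the next 3 genes by smaller difference, the 5 most similar genes on each of 2 measures, and 3 measured neighbours on each side. Measured members of lists without a call are given outside that rule. The planned match of protein and promoter sequences was not run. Alternatives were a common median, quantile normalization, array weights, a replicate block, a trend and robust spread, a level filter, 1 metal alone, all probe sets, and each array left out. Same-numbered slim1-1 and wild-type arrays are not stated to share a batch.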

Additional observations from a re-analysis of the deposited data

Results flagged for a closer look

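For 6 of the genes described, the genotype difference itself differed between the metals by the interaction test (limma, Benjamini-Hochberg adjusted p over 13356 genes, where 4.3% passed). Of the DUF506 family these were AT2G20670 (-2.40 ± 0.21, SE, adjusted p = 0.000197), AT3G07350 (-1.69 ± 0.18, adjusted p = 0.00039) and AT2G38820 (-0.97 ± 0.15, adjusted p = 0.00304), each higher in slim1-1 on all 3 arrays under arsenite and lower on all 3 under cadmium. Of the sulfur genes, BGLU28 (AT2G44460) gave -3.58 ± 0.36 (adjusted p = 0.000347), APS4 (AT5G43780) 0.81 ± 0.15 (adjusted p = 0.0122) and APS3 (AT4G14680) -0.88 ± 0.21 (adjusted p = 0.0363). The APS3 call was lost in 8 of 12 fits without 1 array and with the replicate block (adjusted p 0.055 to 0.0951). Metal, dose and set of arrays cannot be told apart in these values. The BGLU28 value also rests on wild-type arsenite values in the lowest quartile of their arrays.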

How the results depend on the processing

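The genotype difference of AT1G12030 kept its sign under every alternative run. It lay between 3.35 (without slim1-1 arsenite replicate 1) and 4.14 under arsenite and between 2.75 and 3.25 under cadmium. Cadmium minus arsenite lay between -1.16 and -0.36. Leaving out 1 of 3 arrays cannot move a group mean by more than the SD of that group, so these moves were not judged against that SD. The fall of 3 DUF506 genes under cadmium was called in all 20 alternatives, which called 3 or 4 members. Under arsenite the family count was 1, with 2 under array weights, 0 with 1 metal fitted alone, and 0 to 1 when an array was left out. The sulfur list count under arsenite was 2, with 3 under array weights, 1 when 1 metal was fitted alone and 1 to 2 when an array was left out. Under cadmium that count was 4, and 4 or 5 in the alternatives. Of all genes 140 were called under arsenite: 744 with array weights, 85 with the replicate block, 14 with the arsenite arrays alone, 296 over all probe sets, and 50 (without wild-type replicate 2) to 250 (without slim1-1 replicate 1) when an array was left out, with 58 without slim1-1 replicate 2 and 88 without wild-type replicate 3. Under cadmium 1646 were called: 2177 with array weights, 1019 with the replicate block, 3227 over all probe sets, and 851 (without slim1-1 replicate 2) to 1794 when an array was left out, with 958 and 966 without wild-type replicate 1 or 3. The cause of these moves was not tested, except that more probe sets were tested in the fit over all of them. A common median turned the share of higher calls to 24.7% under arsenite and 39.2% under cadmium, against 43.6% and 53.7%. Deviations from the group means correlated with r of -0.334 to 0.0952 between same-numbered arrays of the 2 genotypes. Differently numbered arrays gave -0.139 to 0.336. The numbers were therefore not taken as pairs, and the block ended 3 of 76 single-gene results. Of 1496 single-gene values under alternatives 1459 kept their side of the threshold, 24 lost and 13 gained a call, and 0 called values changed sign. Values in the lowest quartile of an array, such as wild-type AT1G12030 and BGLU28 under arsenite, are limited by background.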
